A study of Mus musculus with 12 samples.

Results

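The immediate early stress genes were followed here in lineage-depleted mouse bone marrow, across mice and between E4bp4 genotypes. The set was given by symbol as Fos, Fosb, Jun, Junb, Egr1, Btg2, Ier2, Dusp1, Atf3 and Nr4a1, and all 10 were found among the 19937 genes that the arrays measure with a transcript cluster naming only that gene. Each gene had 1 such transcript cluster, so no choice between rows was needed. The arrays carried RNA of 6 E4bp4-/- mice, in which the gene for the transcription factor E4bp4 (also called Nfil3) is disrupted, and 6 E4bp4+/+ mice, here called knockout and wild type. Marrow was released by crushing the hind legs of both groups, and magnets then removed cells bearing Ter119, GR1, CD11b or B220, and those bearing CD2 or NK1.1, so each array reads whatever mixture of cells was left. The strain, age and sex of the mice, the deleted part of E4bp4 and the time from death to lysis are not given in the sources used here. Sex is read below from sex-linked transcripts. The question put to these genes was whether they differ between the genotypes and whether they move together from mouse to mouse.

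Immediate early genes are transcribed within minutes of a stimulus, with no need for new protein, and their short-lived transcripts then decay. Serum response factor with its partners, and CREB and related factors at cyclic AMP response elements, act downstream of MAP kinase and calcium signals to switch them on. The set joins AP-1 subunits (Fos, Fosb, Jun, Junb) and the related basic leucine zipper factor Atf3 with the zinc finger factor Egr1, the nuclear receptor Nr4a1, the phosphatase Dusp1, which inactivates MAP kinases, the antiproliferative gene Btg2 and the nuclear protein gene Ier2. In marrow, AP-1 and Egr1 act in myeloid differentiation and Nr4a1 in stem cell quiescence. Taking cells out of a tissue is itself a known trigger of this response.

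The promoters of 6 members are shown with a core of 5 letters, TGACG, that CREB and ATF factors read. RefSeq promoter windows of assembly GRCm38.p6 were present for 8 members; Egr1 and Ier2 had none. Each sequence is the 250 bases before the annotated gene start, on the strand of the gene, with every TGACG or its reverse complement in capitals. Fos lies on the plus strand at chr12:85473640-85473889 and Nr4a1 on the plus strand at chr15:101266596-101266845. On the minus strand are Dusp1 at chr17:26508473-26508722, Atf3 at chr1:191183334-191183583, Jun at chr4:95052223-95052472 and Btg2 at chr1:134079156-134079405. Fos, Dusp1, Atf3 and Nr4a1 are shown as members with the core and Jun as the member without it. Btg2 is shown as the member that did not pass the test for rising with Fos over all arrays.
Fos: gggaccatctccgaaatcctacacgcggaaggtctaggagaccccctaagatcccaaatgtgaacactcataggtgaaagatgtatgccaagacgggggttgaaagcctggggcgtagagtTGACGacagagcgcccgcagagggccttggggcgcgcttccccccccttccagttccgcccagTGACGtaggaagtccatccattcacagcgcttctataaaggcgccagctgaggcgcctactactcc
Dusp1: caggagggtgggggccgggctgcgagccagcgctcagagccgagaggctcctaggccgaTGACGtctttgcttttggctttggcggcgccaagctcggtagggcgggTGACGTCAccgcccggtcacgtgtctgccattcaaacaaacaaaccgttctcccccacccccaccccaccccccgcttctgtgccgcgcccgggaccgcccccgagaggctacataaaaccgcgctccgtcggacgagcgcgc
Atf3: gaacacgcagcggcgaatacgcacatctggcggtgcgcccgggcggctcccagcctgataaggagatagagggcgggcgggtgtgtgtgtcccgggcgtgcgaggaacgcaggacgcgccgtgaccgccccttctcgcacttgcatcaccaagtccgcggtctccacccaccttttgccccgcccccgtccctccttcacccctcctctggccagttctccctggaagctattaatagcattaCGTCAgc
Nr4a1: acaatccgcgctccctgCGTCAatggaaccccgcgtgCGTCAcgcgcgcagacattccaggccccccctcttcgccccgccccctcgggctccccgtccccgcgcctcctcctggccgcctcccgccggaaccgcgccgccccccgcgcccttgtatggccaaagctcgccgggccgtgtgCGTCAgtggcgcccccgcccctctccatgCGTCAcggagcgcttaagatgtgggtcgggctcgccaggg
Jun: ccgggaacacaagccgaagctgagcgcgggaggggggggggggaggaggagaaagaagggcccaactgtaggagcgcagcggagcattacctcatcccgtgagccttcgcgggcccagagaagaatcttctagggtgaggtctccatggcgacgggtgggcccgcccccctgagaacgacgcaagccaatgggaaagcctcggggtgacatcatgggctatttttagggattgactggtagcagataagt
Btg2: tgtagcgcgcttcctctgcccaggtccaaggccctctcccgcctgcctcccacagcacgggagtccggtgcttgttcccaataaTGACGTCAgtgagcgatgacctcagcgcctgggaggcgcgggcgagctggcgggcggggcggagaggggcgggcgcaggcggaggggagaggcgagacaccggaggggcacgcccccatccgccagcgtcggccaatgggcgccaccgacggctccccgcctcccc

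The core TGACG was in 7 of the 8 windows, on either strand, against 17.8% of 32851 RefSeq promoter windows of the same length. Member windows had a GC content of 58.4% to 74.4%, against a median of 52.4% over all windows, and of windows with at least the lowest GC content of a member 26.7% held the core. Nr4a1 had 4 copies, the nearest ending 36 bases before the start, and Fos had 2, at 62 and 125 bases before the start. Dusp1 had 3, a count that reads its TGACGTCA on both strands. The full element TGACGTCA, which contains the core on both strands, was in Dusp1 and Btg2, 2 of the 8 windows, against 1.55% of all. The CArG box bound by serum response factor, the AP-1 site TGANTCA and the E4BP4 sites TTATGTAA and TTACGTAA were in 0 of the 8 windows, against 1.47%, 6.75%, 0.819% and 0.113% of all windows. These counts describe letters in 250 bases and not binding. Sites beyond these bases, and the promoters of Egr1 and Ier2, were not searched. Jun, with no core, had an r with Fos of 0.95 over the arrays. Of the members with the full element, Dusp1 had 0.96 and Btg2 had 0.46. The other members with the core had 0.92 (Fosb and Atf3), 0.85 (Junb) and 0.84 (Nr4a1). Whether the core bears on the co-variation was not tested.

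The targeted gene and the labels were checked first. Nfil3 ran from 6.34 to 6.92 log2 in knockout mice and from 6.94 to 7.66 in wild type mice, so the genotypes did not overlap (difference -0.68 ± 0.127 log2 SE, two-sided exact permutation p = 0.00216), although its limma adjusted p over all transcript clusters was 0.14. Array medians lay between 6.50 and 6.62, and correlations between arrays between 0.986 and 0.9955. The stem and progenitor list (Kit, Cd34, Flt3 and others) had mean levels between 9.16 and 9.60. The depleted antigens Cd2, Itgam and Ly6g had means between 5.59 and 6.11 except on knockout replicate 1, at 6.96. Within this list Itgam, the CD11b gene, ran from 6.81 to 8.93, above every array median. Its mean was 7.54, against 5.20 for Cd2 and 5.10 for Ly6g. The NK1.1 gene Klrb1c was under the level filter on every array. Knockout replicate 1 stood apart in Xist, at 6.08 against at least 12.1 elsewhere, in the Y-linked Eif2s3y, at 7.37 against at most 4.13, and in neutrophil and monocyte genes. By Xist and Eif2s3y this array read as male and every other array as female, so sex was not balanced between the genotypes. For the members, spread, slopes, correlations and counts are therefore also given without knockout replicate 1, with the SD printed for some of them only.

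All values that follow are log2 levels, so a difference of 1 is a doubling. Among the Fos subunits, Fos had a lowest, median and highest level of 10.69, 11.07 and 11.71 in knockout mice and 10.51, 11.19 and 11.54 in wild type mice. Fosb was at 11.12, 11.27 and 11.89 in knockout mice and 10.55, 11.35 and 11.80 in wild type mice. For both genes the highest array of each genotype was replicate 1 and the lowest of all was wild type replicate 6, and the genotypes overlapped over most of their range.

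Among their partners, Jun was at 11.56, 11.66 and 12.09 in knockout mice and 11.20, 11.70 and 11.98 in wild type mice. Junb was at 7.53, 7.97 and 8.36 in knockout mice and 7.70, 8.04 and 8.50 in wild type mice. Atf3, a stress-induced factor that pairs with Jun proteins, spanned 8.51, 9.20 and 11.06 in knockout mice and 8.09, 9.65 and 10.80 in wild type mice. The Atf3 range over all arrays, 2.97 log2, was a 7.83-fold span between mice, against 1.86-fold for Jun and 1.96-fold for Junb.

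Egr1, the zinc finger factor, was at 9.89, 10.31 and 10.81 in knockout mice and 9.82, 10.51 and 10.80 in wild type mice. Nr4a1 was at 6.97, 7.32 and 9.28 in knockout mice and 6.88, 7.58 and 9.38 in wild type mice. Nr4a1 was thus far higher on the arrays numbered 1 of both genotypes, 9.28 and 9.38, than on any other array, where it reached at most 8.28.

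Of the remaining members, Dusp1 was at 12.04, 12.39 and 13.07 in knockout mice and 12.03, 12.42 and 12.88 in wild type mice. Ier2 was at 7.76, 7.99 and 8.53 in knockout mice and 7.86, 8.12 and 8.66 in wild type mice. Btg2, a target of p53 as well as an immediate early gene, was at 9.87, 10.46 and 10.74 in knockout mice and 10.48, 10.54 and 10.66 in wild type mice. Btg2 was the member with the most unequal spread, with an SD of 0.33 in knockout mice and 0.07 in wild type mice (n = 6 each). It was low on knockout replicates 4 and 5, at 9.87 and 10.28, and its highest array was knockout replicate 2, not an array numbered 1.

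**Figure D1:**
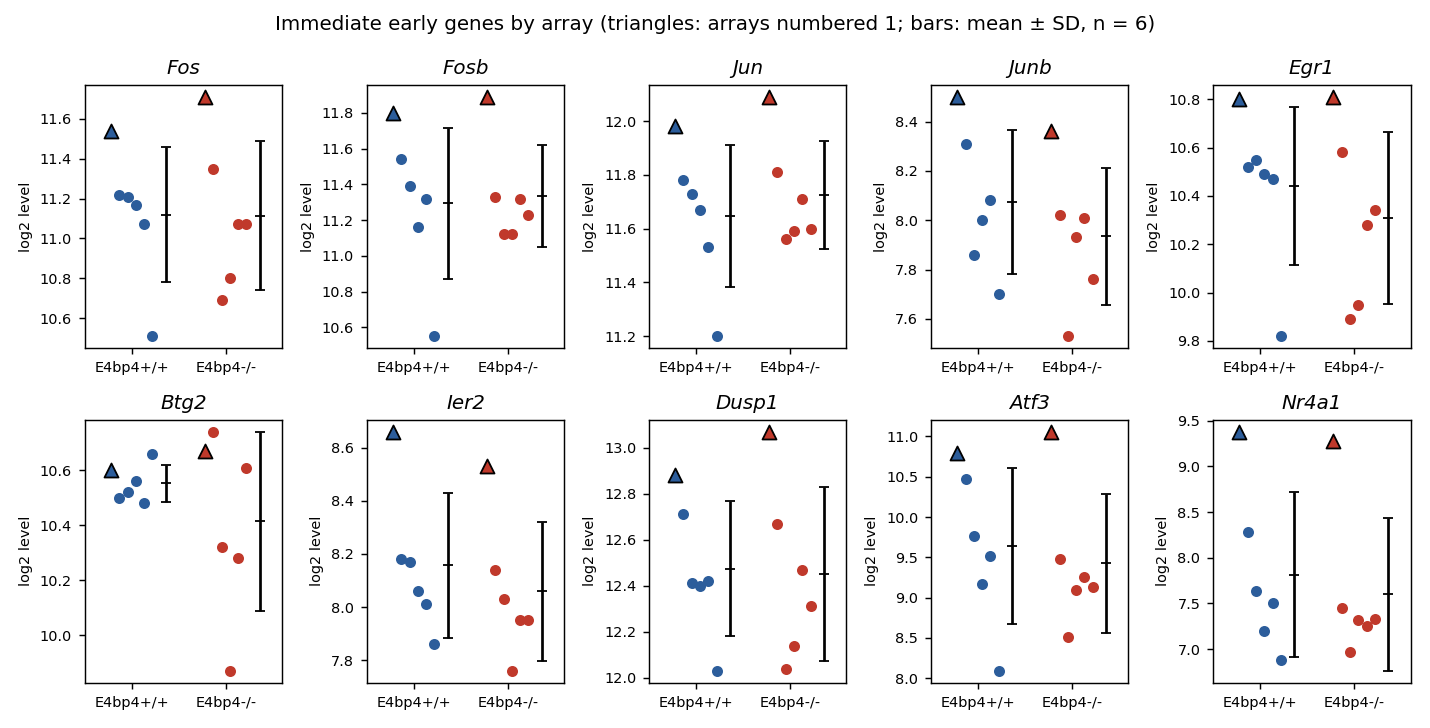
Log2 level of each member (vertical axes, scaled per gene) on the 6 wild type (blue) and 6 knockout (red) arrays; triangles are the arrays numbered 1 and black bars the mean ± SD. The genotypes overlap for every member, and the triangles are the 2 highest arrays for 9 of the 10 members, Btg2 being the exception.

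No difference of a member between the genotypes passed the test. The differences, knockout minus wild type, were -0.01 ± 0.186 log2 (SE) for Fos, 0.04 ± 0.189 for Fosb, 0.08 ± 0.125 for Jun and -0.14 ± 0.150 for Junb. They were -0.13 ± 0.178 for Egr1, -0.03 ± 0.177 for Dusp1, -0.10 ± 0.142 for Ier2 and -0.14 ± 0.125 for Btg2. The genes of widest spread had the widest errors, with -0.21 ± 0.476 for Atf3 and -0.22 ± 0.452 for Nr4a1. In limma over all 29541 transcript clusters 0 of 10 members passed an adjusted p of 0.05; the highest adjusted p was 0.991 for Fos, and the lowest unadjusted p was 0.293 for Btg2. The background was 0% of all transcript clusters at that threshold. At an unadjusted p under 0.05 it was 0 of 10 members against 14.9% of transcript clusters, and the genotypes were free of overlap for 0 of 10 members against 1.27%. Two-sided exact permutation of the 12 values gave p from 0.379 for Btg2 to 0.970 for Fos.

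The arrays allow these differences to be bounded. The 95% interval of the limma fit ran from -0.41 to 0.40 log2 for Fos, from -0.19 to 0.35 for Jun and from -0.41 to 0.13 for Btg2, so a doubling or a halving of these by genotype lay outside the interval. For Atf3 and Nr4a1 the intervals, -1.25 to 0.82 and -1.20 to 0.76, still held a halving. Sizes depended on single arrays. Without knockout replicate 1 the differences were -0.54 for Atf3, -0.555 for Nr4a1, -0.235 for Egr1 and -0.126 for Fos. Without wild type replicate 1 these genes, in the same order, differed by 0.0201, 0.0951, -0.0631 and 0.0766. The sign of a difference was not fixed for 7 members, Fos, Fosb, Jun, Ier2, Dusp1, Atf3 and Nr4a1, since it turned when single arrays were left out or under another scaling or weighting. With the Fos level of each array as a term, an alternative chosen after seeing the data, the error of Egr1 shrank and its difference was -0.13 ± 0.038 log2 (unadjusted p = 0.00612, limma adjusted p = 0.177). The other members then differed by -0.20 (Nr4a1) to 0.08 (Jun), with adjusted p-values of 0.388 or more.

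**Figure D2:**
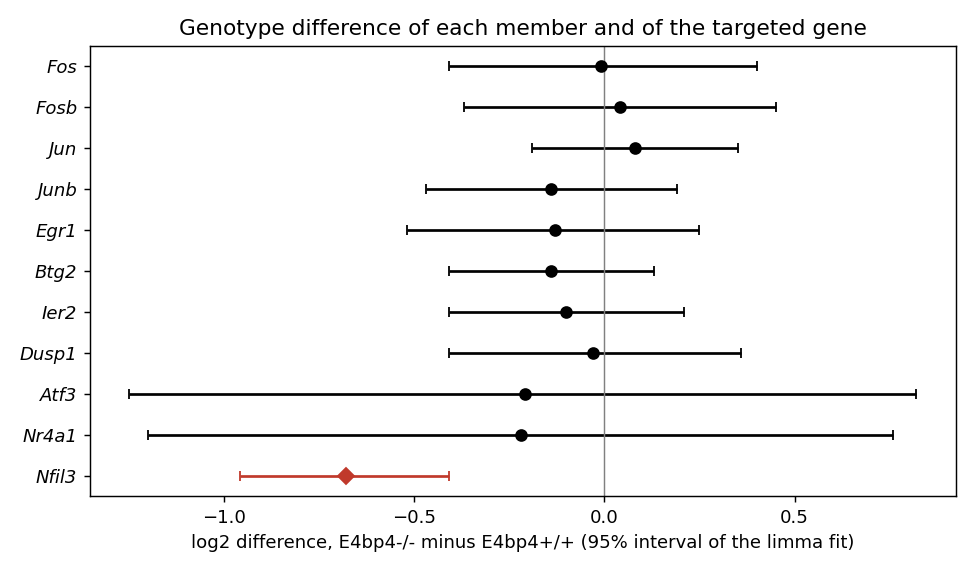
Difference in log2 level, knockout minus wild type (horizontal axis), for each member (black) and for the targeted gene Nfil3 (red), with the 95% interval of the limma fit over 6 and 6 arrays. Every member's interval includes 0, and the intervals of Atf3 and Nr4a1 are the widest.

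What set these genes apart from most others was their spread between mice of the same genotype. The residual SD was 0.918 log2 for Atf3 and 0.871 for Nr4a1, both above 99.8% of all transcript clusters tested. It was 0.356 for Fos, 0.361 for Fosb, 0.340 for Egr1 and 0.338 for Dusp1, above 91.9% to 93.4% of all. Against the 1000 transcript clusters nearest in mean level the same 4 genes stood above 96.8% to 98.8%. Jun (0.236), Btg2 (0.235), Ier2 (0.269) and Junb (0.286) were less spread but still above 82.7% of all transcript clusters or more. Against those nearest in mean level they stood above 95.7% (Jun), 92.6% (Btg2), 87.9% (Ier2) and 87.7% (Junb). Without knockout replicate 1 the residual SD was 0.761 for Atf3, 0.681 for Nr4a1 and 0.306 for Fos, and the 10 members stood above 82.1% (Jun) to 99.7% (Atf3) of all transcript clusters. These percentiles are descriptions and carry no test.

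The spread was shared. After subtraction of each genotype's mean, the correlation with Fos over the 12 arrays was 0.99 for Egr1, 0.96 for Dusp1, 0.95 for Jun, 0.92 for Fosb and 0.92 for Atf3. It was 0.86 for Ier2, 0.85 for Junb and 0.84 for Nr4a1, and 0.46 for Btg2. Spearman's rho was 0.98 for Jun, 0.97 for Egr1, 0.94 for Dusp1, 0.90 for Fosb and Atf3, 0.87 for Ier2, 0.86 for Nr4a1, 0.82 for Junb and 0.45 for Btg2. Over these 9 relations, two-sided permutation tests gave p between 1e-05, the smallest that 100000 resamples can give, and 0.00065 for Pearson's r of all but Btg2, whose permutation p was 0.133. For rho the permutation p was at most 0.00192 (Junb) for all but Btg2, at 0.14.

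The slope on Fos, in log2 units per log2 unit of Fos with genotype in the fit, separated the members by amplitude. Atf3 rose by 2.38 ± 0.297 (SE) and Nr4a1 by 2.05 ± 0.395 for each unit of Fos, so their swings exceeded that of Fos. Egr1 (0.94 ± 0.0585), Fosb (0.94 ± 0.124) and Dusp1 (0.91 ± 0.0877) moved nearly unit for unit. Junb (0.68 ± 0.133), Ier2 (0.65 ± 0.122) and Jun (0.63 ± 0.0723) moved less, and the slope of Btg2 was 0.30 ± 0.178. In limma over all 29540 other transcript clusters 8 of 9 members rose with Fos at an adjusted p of 0.05, where the background was 0.206% rising and 1.02% falling. Their adjusted p-values ran from 7.98e-05 for Egr1 to 0.0352 for Junb, and that of Btg2 was 0.415. The members were chosen with earlier results of these data known. With the replicate number as a block, 0 of 9 members passed (limma adjusted p = 0.27 for Egr1 and 0.603 or more for the others), while r was 0.996 for Egr1, 0.955 for Dusp1 and 0.446 for Nr4a1. Without knockout replicate 1 the slopes were 2.19 ± 0.367 for Atf3, 1.65 ± 0.461 for Nr4a1, 0.99 ± 0.0689 for Egr1 and 0.57 ± 0.151 for Ier2, and 3 members passed. Those of Fosb, Dusp1, Junb, Jun and Btg2 were then 0.93 ± 0.158, 0.85 ± 0.106, 0.66 ± 0.169, 0.64 ± 0.0917 and 0.24 ± 0.225. On these 11 arrays r with Fos was 0.32 for Btg2 and ran from 0.74 (Nr4a1) to 0.99 (Egr1) for the others.

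**Figure D3:**
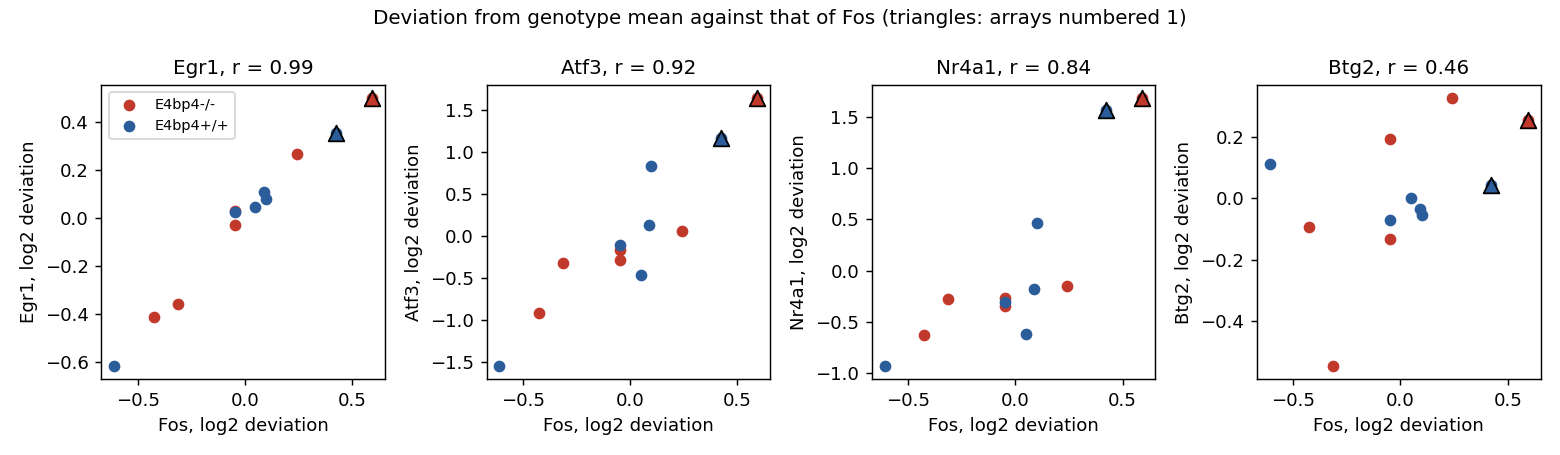
Log2 deviation from the genotype mean of Egr1, Atf3, Nr4a1 and Btg2 (vertical axes) against that of Fos (horizontal axes) on the 6 knockout (red) and 6 wild type (blue) arrays; triangles are the arrays numbered 1. Egr1 lies close to a line (r = 0.99), Atf3 and Nr4a1 rise more steeply, and Btg2 scatters (r = 0.46).

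The co-variation was present in each genotype taken alone. Among the 6 knockout arrays r with Fos ran from 0.85 (Ier2) to 0.99 (Egr1 and Dusp1) over the 8 members that rose with Fos, with exact permutation p from 0.00139 to 0.0292. Among the 6 wild type arrays it ran from 0.82 (Nr4a1) to 0.99 (Egr1), with exact permutation p from 0.00139 to 0.0625, the last for Nr4a1. Btg2 had an r of 0.72 in knockout mice and -0.47 in wild type mice (exact permutation p = 0.1 and 0.338). Over all 45 pairs of members the median r was 0.88, and among the 36 pairs without Btg2 it was 0.90, with a range of 0.74 to 0.99. Btg2 correlated with the other members at 0.15 to 0.50. Without knockout replicate 1 the r with Fos among the 5 other knockout arrays ran from 0.56 (Ier2) and 0.69 (Junb) to 0.99 (Egr1), and the 36 pairs had a median of 0.86 and a range of 0.63 to 0.99.

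The arrays at the ends carried much of the signal. Both arrays numbered 1 were the highest pair of the 12 for 9 of 10 members, an order found in 5.55% of all transcript clusters. The labels do not say what the number marks. The mean of both arrays numbered 1 exceeded that of the other 10 arrays 3.87-fold for Nr4a1, 3.20-fold for Atf3, 1.56-fold for Fosb, 1.53-fold for Fos and Dusp1 and 1.13-fold for Btg2. Wild type replicate 1 alone exceeded the same 10 arrays 4.00-fold for Nr4a1, 2.93-fold for Atf3 and 1.44-fold for Fos. Wild type replicate 6 was the lowest array for 7 members. Without knockout replicate 1 and wild type replicate 6, the arrays farthest from the median Fos deviation, r over 10 arrays was 0.98 for Egr1, 0.93 for Dusp1, 0.85 for Jun and 0.74 for Fosb and Atf3. It was then 0.71 for Ier2, 0.68 for Junb and 0.64 for Nr4a1, with permutation p from 2e-05 to 0.0454 for all 8. Btg2, whose r ran from 0.319 to 0.699 with single arrays left out, had 0.66 on these 10 arrays (permutation p = 0.0351). That was above the r of Nr4a1 on the same arrays. The fit over all transcript clusters called 0 members without that pair of arrays (limma), 1 without both arrays numbered 1, 3 without knockout replicate 1, and 5 each without wild type replicate 1 or wild type replicate 6, against 8 with all arrays.

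**Figure D4:**
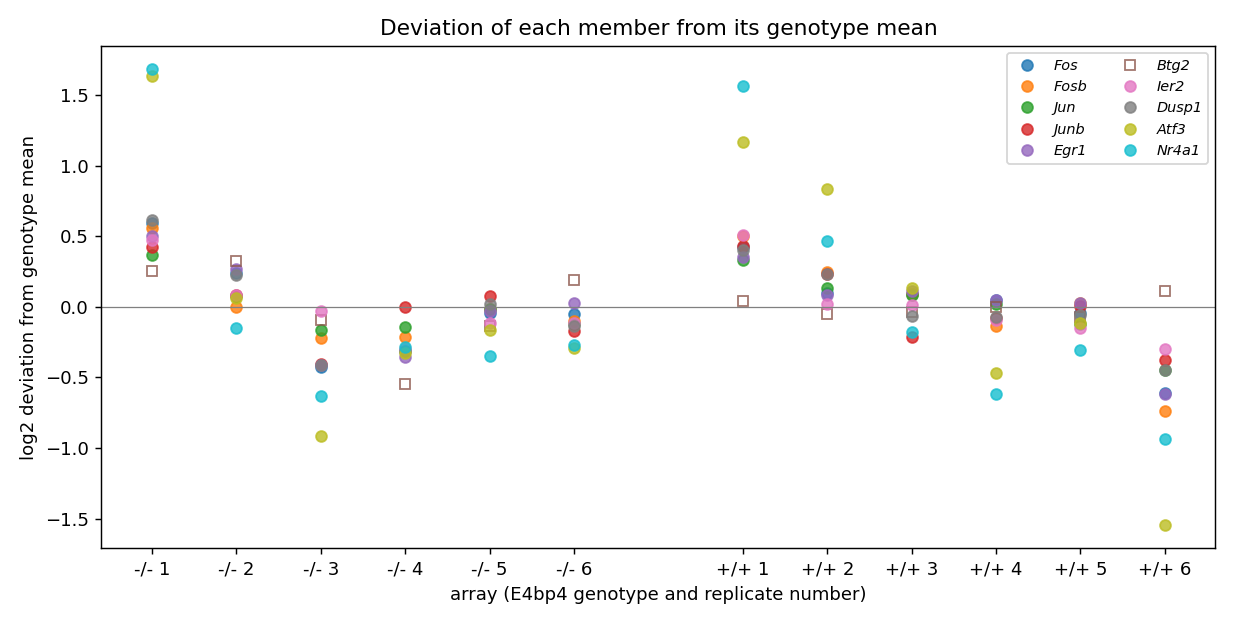
Log2 deviation of each member from its genotype mean (vertical axis) on each array (horizontal axis); Btg2 is drawn as open squares. On replicate 1 of both genotypes every member lies above 0, and Nr4a1 and Atf3 deviate most.

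A search over all transcript clusters placed other immediate early genes next to Fos. Of the 10 named genes that rose with Fos at the lowest p, 4 were members (Egr1, Dusp1, Jun and Atf3). The others were Rgs1, a damper of G protein signals (r = 0.96), the Krüppel-like factors Klf6 (0.96) and Klf2 (0.93), the ERK phosphatase Dusp6 (0.93), Zfp36, which marks short-lived mRNAs for decay (0.94), and the small GTPase Rhob (0.93). Klf6 ran from 9.34 on wild type replicate 6 to 11.08 on knockout replicate 1, and its limma adjusted p was 0.00145. The slopes were 1.33 ± 0.119 (SE) for Klf6 and 1.29 ± 0.151 for Dusp6. None of these 6 passed the test between genotypes, with differences from -0.10 (Zfp36) to 0.09 (Rhob and Klf2) and adjusted p-values of 0.831 or more. The 5 named genes that fell with Fos at the lowest p were Scarna8, a small Cajal body RNA (r = -0.97), Zfp780b (-0.95), Gm7265 (-0.92), Zgrf1 (-0.94) and Gm10589 (-0.91). In all, 61 transcript clusters rose with Fos, of which 54 named 1 gene, and 301 fell, of which 88 did.

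**Figure D5:**
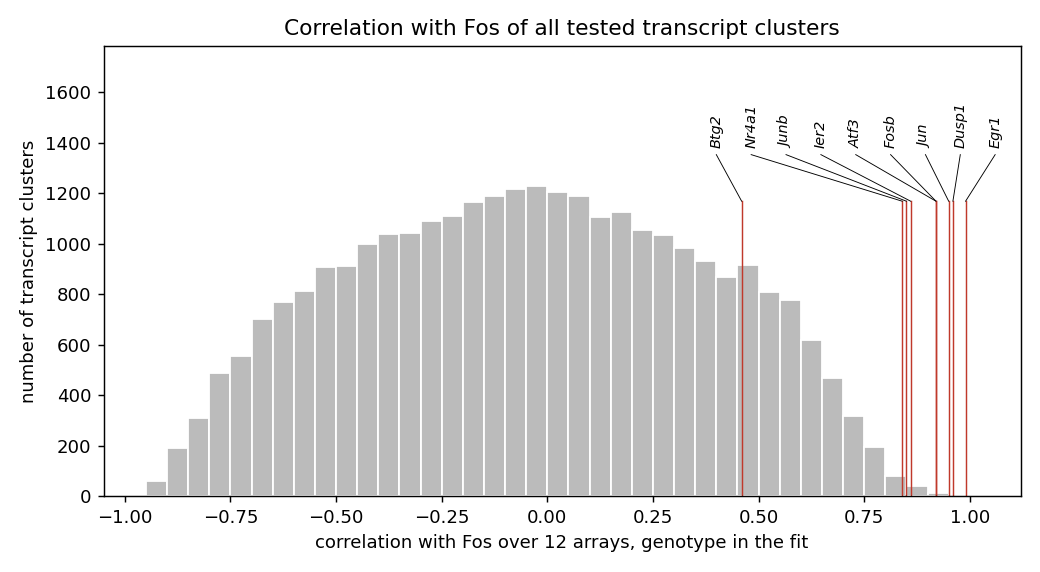
Number of transcript clusters (vertical axis) by correlation with Fos over 12 arrays with genotype in the fit (horizontal axis), for 29540 transcript clusters; red lines mark the 9 other members. The members other than Btg2 lie between 0.84 and 0.99, where 0.251% of all transcript clusters are at or above 0.84, and Btg2 lies at 0.46.

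Of the 54 named genes that rose with Fos, 8 were members and 23 came from lists of related genes. These 23 were 20.2% of the 114 list genes tested, against 0.206% of all transcript clusters, named or not. Among the 19277 other transcript clusters tested that name 1 gene, 54 rose. The lists were chosen with earlier results of these data known, so part of this excess may be built in. Among other immediate early transcription factors 6 of 17 rose and 0 fell, and the median r was 0.75, against -0.04 over all transcript clusters. They included Klf6, Klf2 and Nfkbiz, an IκB-like regulator of secondary response genes (r = 0.89). Among feedback and mRNA decay regulators 10 of 27 rose and 0 fell, led by Rgs1, Dusp6 and Zfp36, with a median r of 0.74. Among early inflammatory cytokines 5 of 9 rose and 0 fell: Cxcl2 (r = 0.92), Tnf (0.88), Ccl3, Cxcl10 and the prostaglandin synthase gene Ptgs2 (0.91). Cxcl2, a neutrophil chemokine, stood at 7.46 on both arrays numbered 1 and went down to 5.67 elsewhere.

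Lists of other stress responses, other AP-1 factors and upstream regulators were counted in the same fit, with no test between lists. The background was 0.206% rising and 1.02% falling, so a count of 0 lies near it. Of 17 heat shock genes 0 rose and 0 fell with Fos, and their median r was -0.07; the nearest by p was Hspb1, a small heat shock protein gene (r = 0.57, adjusted p = 0.364). Of 13 genes of the integrated stress and unfolded protein responses 1 rose, Herpud1 (r = 0.83, adjusted p = 0.0477), while Ddit3, which encodes CHOP, had an r of 0.78 and an adjusted p of 0.085. The median r of these 13 genes was 0.54, and 11 had a positive slope. Among the other AP-1 and related factors 1 of 11 rose, Jund (r = 0.85), their median r was 0.51, and Fosl2 had an r of 0.77 with an adjusted p of 0.0905. Of 20 upstream kinases and activators 0 rose and 0 fell; Srf, the serum response factor gene, had an r of 0.73 and its partner Elk4 one of -0.83, with adjusted p-values of 0.156 and 0.108. The counts depended on single arrays. Without knockout replicate 1 they were 1 for the other immediate early factors, 1 for the feedback genes and 0 for cytokines, AP-1 factors and the stress responses. Without wild type replicate 1 the first 3 were 4, 3 and 2, and without wild type replicate 6 they were 3, 7 and 4; those of AP-1 factors and stress responses were 0 in both. Without both arrays numbered 1, and without the pair farthest in Fos, every list was at 0.

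By genotype, 0 genes of any of these lists passed an adjusted p of 0.05 in limma. Median differences, knockout minus wild type, were -0.12 log2 for the 10 members, -0.01 for the other immediate early factors, -0.03 for the feedback genes, 0.00 for the cytokines, -0.04 for heat shock genes and 0.06 for the integrated stress genes, against 0.02 over all transcript clusters. The list genes of lowest p by genotype were Zfp36l2, an mRNA decay factor (0.19 ± 0.0579 log2 SE, adjusted p = 0.213), Ddit4, an inhibitor of mTOR (0.21 ± 0.0733, 0.235), and the chaperone gene Dnajb4 (-0.17 ± 0.0643, 0.258). At an unadjusted p under 0.05 there were 1 of 27 feedback genes, 2 of 17 heat shock genes, 2 of 13 integrated stress genes and 4 of 20 upstream genes, against 14.9% of all. For Per1, a clock gene that is also induced early, the difference was 0.36 ± 0.183 (unadjusted p = 0.0752).

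Both arrays numbered 1 were also above every other array in the mean of 6 of 17 cell lists, and in bulk RNA fewer cells of a type and less RNA per cell cannot be told apart. Of 102 markers of 17 cell lists 0 rose and 0 fell with Fos at an adjusted p of 0.05. The background was 0.206% rising and 1.02% falling, so 0 of 102 lies near it. All 10 later neutrophil granule genes and all 11 monocyte and macrophage genes had positive slopes, with a median r of 0.60 and 0.48. Slopes were positive for 13739 of all 29540 transcript clusters. Each of these neutrophil and monocyte genes was highest on knockout replicate 1, and no slope of a cell list is given without that array. The neutrophil list mean was 9.19 on knockout replicate 1 and 7.15 on wild type replicate 1, where the other 10 arrays ran from 6.33 to 7.57. The monocyte list mean was 9.22 and 8.34 on the same arrays and 7.69 to 8.21 on the others. Primary neutrophil granule genes, 5 of 5 with a positive slope and a median r of 0.64, were at 12.94 and 12.70 there and 11.66 to 12.50 elsewhere. Basophil and mast cell genes were at 10.58 and 10.33, against 8.53 to 10.07. The other lists highest on that pair were NK cells (7.96 and 7.78, against at most 7.74), endothelial cells (7.13 and 7.08, at most 7.06) and plasmacytoid dendritic cells (8.02 and 8.03, at most 7.98). Their markers were mixed. Nkg7 and Gzmb were above their means over all arrays on both, Prf1 only on knockout replicate 1, and Ncr1 on neither. Of the endothelial genes Kdr and Esam were below their means on both, and the rest above. Of the plasmacytoid genes only Siglech and Ly6d were above on both. On wild type replicate 6, which was lowest in Fos, the neutrophil list mean was 7.05 and the monocyte one 8.18, both within the range of the others. The same array had the highest means of the erythroid list, 11.43 against a lowest of 10.76, and of the eosinophil list, 9.86, and the lowest of the plasma cell list, 6.74. The erythroid list had a median r with Fos of -0.69, with 3 of 5 slopes negative (Klf1, Epor and Tfrc). Slc4a1 (r = 0.07) and Alas2 (r = 0.26) had positive slopes. Slc4a1, Alas2 and Tfrc were at their highest on wild type replicate 6 (12.77, 10.37 and 11.67), and Klf1 and Epor were not. Megakaryocyte genes, 5 of 5 with a negative slope, were at 10.23 and 10.19 on the arrays numbered 1 and 10.06 to 11.12 on the others. The array median correlated with the Fos deviation at -0.55, and after each array was centred on its median 8 of 9 members still rose with Fos. The part of cell mixture or of tissue handling in the co-variation was not tested.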

How the data were processed

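The authors hybridised RNA of 12 mice to GeneChip Mouse Gene 1.0 ST arrays and made log2 values with GeneSpring GX and RMA16, per the deposited series design text; scale was inferred from the range, 3.18 to 14.33. RMA can hide a shift of most genes. No build of the array annotation was stated in the labels. Of 34760 transcript clusters, 29541 reached their array's 20th percentile (4.93 to 4.99) at least once and were tested. Platform annotation named 1 gene for 21640, several for 1321 and none for 11799; 21553 matched RefSeq identifiers, changing 0 symbols.

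Genotype differences and slopes on Fos (genotype as a term) were fitted over all transcript clusters with limma 3.58.1 in R 4.3.3 (lmFit, eBayes, Benjamini-Hochberg), tested on simulated data. Single values were tested by two-sided exact permutation, correlations by 100000 resamples or, within a genotype, exactly. Nothing says how mice were raised, so p-values measure the spread between these samples.

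Members and lists were chosen with earlier results of these data known. Named genes were the members, Nfil3, the 10 rising and 5 falling with Fos at lowest p, and up to 3 per list and fit. Ccl3 and the erythroid, NK, endothelial and plasmacytoid markers were named outside this rule, after their values were seen, to spell out counts and list means. Of 114 tested genes in the lists of related genes and 102 tested cell markers, the others are given as counts. Alternatives covered filter, scaling, variance trend, array weights, replicate block, anchor gene and arrays left out.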

Additional observations from a re-analysis of the deposited data

Results flagged for a closer look

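Among 44 sets of 6 values, those of the members, Nfil3 and the named genes nearest to Fos in each genotype, 4 held an array whose gap to the nearest one exceeded Dixon's 95% critical value as a share of the range, where chance gives about 1 in 20 sets. Fosb on knockout replicate 1 was at 11.89, with the next knockout array at 11.33. Nr4a1 on the same array was at 9.28, with the next at 7.45. Egr1 on wild type replicate 6 was at 9.82, with the next wild type array at 10.47. Nfil3 on wild type replicate 1 was at 7.66, with the next at 7.18.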

How the results depend on the processing

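Under 22 alternatives 0 member differences by genotype passed the threshold in limma. Differences of Junb, Egr1 and Btg2 kept their sign. Signs turned for Fos after quantile normalisation (0.0163) and without single arrays (-0.13 to 0.0774; turned values 0.0774, 0.0551, 0.00164, 0.00189, 0.0766, 0.0121, 0.0101 and 0.00191), and for Dusp1 (-0.15 to 0.0559; turned values 0.0559, 0.0353, 0.000689, 0.0543 and 0.0194). They turned for Fosb with array weights (-0.00824) and without single arrays (-0.107 to 0.142; turned values -0.0705 and -0.107), for Jun (-0.011 to 0.145), Ier2 (-0.192 to 0.00397), Atf3 (-0.54 to 0.0201) and Nr4a1 (-0.555 to 0.0951). Without the 2 arrays farthest in Fos, Fosb was at -0.218 and Jun at -0.0842. Transcript clusters called by genotype were 5 with array weights and 0 to 4 without single arrays. Transcript clusters rising and falling with Fos, and members rising, were 12, 41 and 4 with array weights. Deviations of same-numbered mice correlated at -0.03 to 0.46, above 0.1 for 3 of 6 numbers, and whether a number marks a shared batch was not tested. With that number as a replicate block they were 0, 0 and 0, though r with Fos of Egr1 was then 0.996. They were 20, 76 and 5 with Egr1 as anchor and 93, 475 and 6 with Junb. They were 1, 0 and 1 without both arrays numbered 1 and 0, 0 and 0 without the 2 farthest arrays, both chosen after seeing the data. Without single arrays they ranged from 5 to 58, 24 to 325 and 3 to 8. Centring on medians gave 189 falling. Over all alternatives r with Fos of the members other than Btg2 stayed between 0.446 and 0.996. No member had a second transcript cluster, so averaging over rows gave no value. Sample number, 6 per genotype, limits every value.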
